A study of Mus musculus with 18 samples.

Results

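The livers of female B6C3F1 mice fed 1,5-naphthalenediamine (NDA), an aromatic diamine, were compared with those of mice fed pentachloronitrobenzene (PCNB), a chlorinated nitro compound used as a fungicide. The comparison took 3 arrays against 3 out of 18 arrays in the series, chosen by the chemical named in their titles, and no control array entered it. B6C3F1 is a hybrid strain common in rodent cancer bioassays. Both chemicals were given in the diet on 7 days per week for 13 weeks, from 5 to 18 weeks of age, NDA at 2000 ppm and PCNB at 8187 ppm. The labels class NDA as positive and PCNB as negative for liver cancer, and the title of the series gives its purpose as finding expression signs of tumours that long-term bioassays would find. The doses differ, so every difference below is between these 2 diets and not between equal amounts of the chemicals. Levels in 3 feed control mice of the same strain, sex and age are given as the untreated background. The remaining 9 arrays (2,3-benzofuran by gavage, N-(1-naphthyl)ethylenediamine in feed, and a corn oil gavage control) served to choose which probe sets were tested and entered an alternative fit to all arrays. Each array was an Affymetrix whole-genome mouse array with liver RNA of 1 mouse, and the values are log2 signals.

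Liver cells meet foreign chemicals with sensors such as the aryl hydrocarbon receptor, the receptors CAR and PXR, and NRF2, the factor released by oxidants and electrophiles. Each sensor switches on its own set of enzymes and transporters that oxidise, conjugate or export such compounds. The interferon response is a separate program. Interferons bind receptors present on nearly every cell, and the STAT and IRF factors they activate bind the interferon-stimulated response element, a short repeated motif close to the start of antiviral genes. Those genes encode sensors of viral RNA, RNA-degrading and GTP-binding antiviral proteins, and the machinery that presents peptides to T cells.

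Among the 45 gene lists examined, the interferon response had the most called genes, and they were lower with NDA than with PCNB. The 250 bases before the start of 4 of these genes are shown here, chosen among those that hold the motif, with matches to the core of the interferon-stimulated response element in capitals. The core was taken as GAAA, any 2 bases and GAAA again, or TTTC, any 2 bases and TTTC for the other strand, and overlapping matches were kept. The windows come from RefSeq (build GRCm38.p6), are written 5′ to 3′ along the gene's strand, and end at the base before the annotated start. They are Ifit1 at chr19:34640639-34640888 (plus strand), Ifit3 at chr19:34583279-34583528 (plus strand), Oas1a at chr5:120907526-120907775 (minus strand) and Gbp3 at chr3:142559794-142560043 (plus strand).
Ifit1: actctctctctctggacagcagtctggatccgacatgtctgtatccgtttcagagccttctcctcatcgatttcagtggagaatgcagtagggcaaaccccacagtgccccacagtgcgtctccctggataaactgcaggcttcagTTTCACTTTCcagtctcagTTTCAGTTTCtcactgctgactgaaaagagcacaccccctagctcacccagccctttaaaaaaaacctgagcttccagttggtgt
Ifit3: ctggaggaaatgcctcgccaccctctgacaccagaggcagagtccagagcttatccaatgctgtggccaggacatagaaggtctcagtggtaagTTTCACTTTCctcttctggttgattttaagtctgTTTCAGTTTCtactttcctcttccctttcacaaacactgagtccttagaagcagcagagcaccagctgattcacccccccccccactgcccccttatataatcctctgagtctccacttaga
Oas1a: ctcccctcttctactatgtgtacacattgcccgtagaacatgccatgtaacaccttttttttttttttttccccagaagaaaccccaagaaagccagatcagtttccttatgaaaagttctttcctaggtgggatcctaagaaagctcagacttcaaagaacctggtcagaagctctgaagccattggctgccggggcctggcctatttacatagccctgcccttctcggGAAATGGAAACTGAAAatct
Gbp3: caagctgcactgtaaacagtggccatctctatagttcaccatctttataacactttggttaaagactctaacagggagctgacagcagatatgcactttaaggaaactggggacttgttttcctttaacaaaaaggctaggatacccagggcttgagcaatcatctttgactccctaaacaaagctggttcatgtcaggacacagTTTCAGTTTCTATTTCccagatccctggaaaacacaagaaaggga

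In the Ifit1 window the matches begin 104 and 85 bases before the start, and in the Ifit3 window 156 and 122 bases before it. In Oas1a and Gbp3 the 2 matches of each overlap, and begin 20 and 14 bases and 45 and 39 bases before the start. A second annotated start of Gbp3 has no match in its window, nor do the windows of Oasl2, Irf7 and Cxcl9. Of the 21 interferon response genes called lower, 16 were in the promoter table and 9 of those (56.2%) held a match. Among the 4 interferon genes not called, 2 held one. The core was held by 305 of the 9805 tested genes found there (3.11%) and by 978 of all 32851 windows (2.98%). The share was 21 of 137 (15.3%) for all genes called lower and 2 of 179 (1.12%) for all genes called higher. Those 21 include the 9 interferon response genes already counted, so the shares of 15.3% and 56.2% are not separate observations. A match is a match of letters only, and binding was not measured.

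A gene was called when its adjusted p was under 0.05 in limma, a linear model with moderated variances, with Benjamini-Hochberg adjustment over all 12169 genes tested. Differences are NDA minus PCNB on the log2 scale with the standard error of the model, and n is 3 arrays per group throughout. Of the genes tested, 395 were called (3.25%), of which 219 were higher with NDA (1.8%) and 176 lower (1.45%). Centring each array on the median of the tested genes turned that split to 153 higher and 211 lower. The arrays of the groups did not overlap in 2908 genes (23.9%), which include all 395 called ones, with NDA higher in 1863 (15.3%) and lower in 1045 (8.59%). A change of at least 2-fold was seen in 91 called genes, 33 higher and 58 lower. Called differences had a median size of 0.65, against median standard deviations between mice of 0.131 with NDA and 0.107 with PCNB.

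The 6 arrays had medians between 4.26 and 4.30, and a group mean under 4.26 was taken as not above background. RNA integrity numbers in the labels were 8.8 to 8.9 with NDA and 8.4 to 8.8 with PCNB, so the groups met only at 8.8. With that number as a covariate only 59 genes were called, and its part in the results was not tested further. Of the 87 called genes that the naming rule chose, 58 lost their call with it, and the loss is stated below for only some of them. The NDA array of animal 4 stood apart, with an 18S ribosomal RNA signal of 9.97 against 5.94 to 6.47 in the other 5 arrays and a beta-actin 3′ minus 5′ signal of 1.75 against 0.875 to 1.12. Without it 217 genes were called. Leaving out 1 array at a time gave 111 to 465 called genes, and 97 of the 395 were called in each of those 6 fits. The 11 tested hepatocyte markers had median levels of 13.7 with NDA and 13.8 with PCNB, in keeping with the labelled tissue, and none was called.

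**Figure D1:**
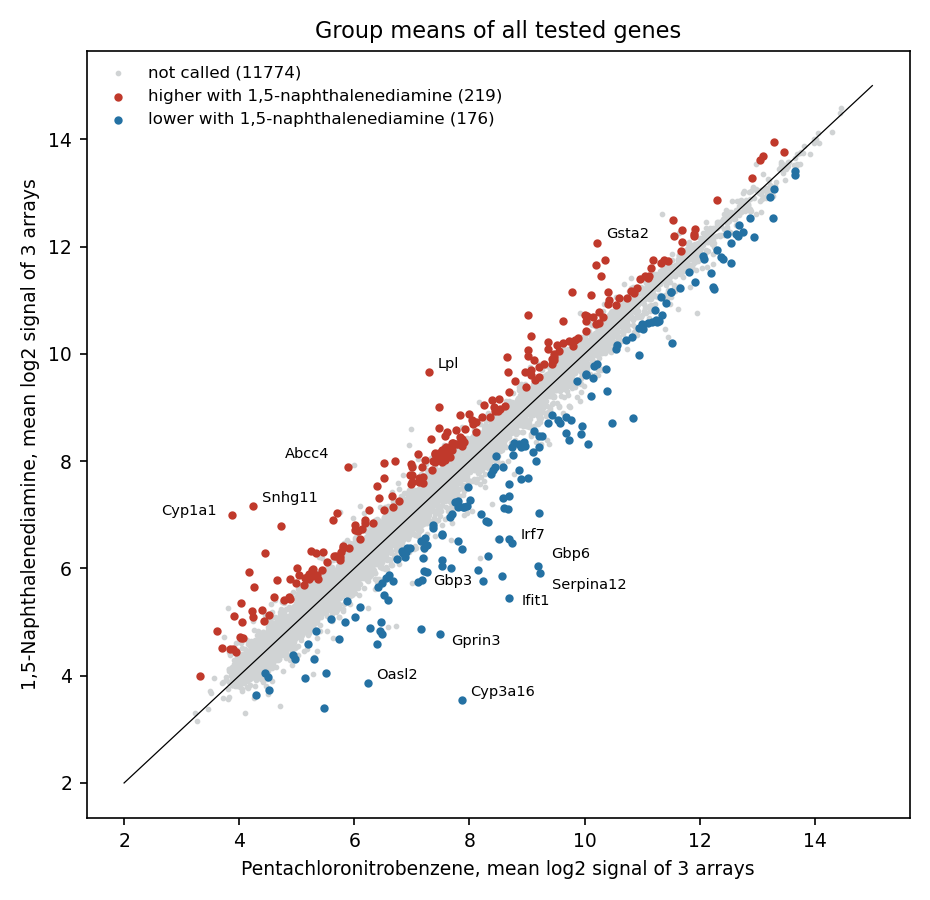
Mean log2 signal of each of 12169 tested genes in 3 NDA arrays (vertical axis) against 3 PCNB arrays (horizontal axis), with the line of equality. The 219 red genes above the line were called higher with NDA and the 176 blue genes below it lower, Cyp1a1 and Snhg11 lying farthest above and Cyp3a16 farthest below.

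Values by array are given for NDA animals 2, 4 and 5, PCNB animals 16, 18 and 20 and feed control animals 27, 28 and 29, in that order. Among 25 tested interferon response genes 21 were called lower with NDA, none was called higher, and all 25 differences were negative, with a median of -1.31 against 0.03 over all tested genes. Ifit1, whose protein binds viral RNA that lacks host cap marks, had signals of 6.12, 5.48 and 4.71 with NDA, 9.08, 8.53 and 8.46 with PCNB, and 5.87, 5.38 and 5.39 in feed controls. All PCNB arrays stood above both other groups, and the NDA and feed control arrays overlapped. The difference was -3.25 ± 0.325 (limma adjusted p = 0.00234), a level 9.49 times as high with PCNB. Oas1a, an oligoadenylate synthetase that activates RNase L, read 5.84, 6.05 and 5.70 with NDA and 8.78, 8.56 and 8.36 with PCNB, against 6.61, 6.73 and 6.13 in feed controls. The NDA arrays were the lowest, with the highest of them under the lowest feed control, and PCNB was 6.51-fold above NDA (difference -2.70 ± 0.137; limma adjusted p = 8.38e-05).

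Guanylate-binding proteins, GTPases that act on the compartments of intracellular pathogens, were lower with NDA as well. Gbp6 was at 6.56, 5.90 and 5.67 with NDA and at 9.32, 9.42 and 8.86 with PCNB, with 7.59, 7.00 and 6.44 in feed controls. The NDA and feed control arrays overlapped below all PCNB arrays, and the difference was -3.15 ± 0.235 (limma adjusted p = 0.000508). Gbp3 was at 6.04, 5.61 and 5.65 with NDA and at 8.18, 8.28 and 8.25 with PCNB, with 6.62, 6.26 and 6.08 in feed controls. The PCNB values of Gbp3 lay close together and far above every NDA value, and NDA was below the feed controls. Its difference was -2.47 ± 0.128 (limma adjusted p = 8.38e-05).

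Irf7, the factor that amplifies interferon production, was at 6.58, 6.59 and 6.24 with NDA, 8.42, 8.94 and 8.85 with PCNB and 6.93, 6.96 and 6.58 in feed controls. The NDA and feed control arrays just overlapped, and no PCNB array came near them. Usp18, a protease that removes ISG15 and dampens interferon receptor signalling, was at 6.39, 6.23 and 6.09 with NDA, 8.14, 8.35 and 8.47 with PCNB and 6.15, 5.67 and 5.54 in feed controls. In Usp18 the NDA arrays overlapped the feed controls at their upper end, where in Oas1a they lay below them. Ifit3 was at 6.58, 6.47 and 6.61 with NDA, 8.45, 8.52 and 8.56 with PCNB and 7.52, 7.04 and 6.62 in feed controls. The differences were -2.27 ± 0.158, -2.08 ± 0.122 and -1.96 ± 0.0885 for Irf7, Usp18 and Ifit3, with limma adjusted p-values of 0.000333, 0.000156 and 4.85e-05. Oasl2 was under background with NDA, at 4.09, 3.91 and 3.59 against 6.39, 6.18 and 6.12 with PCNB, and was at least 3.89-fold higher with PCNB. The chemokine Cxcl9, which draws T cells, was the member whose feed controls (7.56, 7.49 and 7.56) lay nearer to PCNB (mean 7.87) than to NDA (mean 6.37), with a difference of -1.50.

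Antigen presentation genes of the list showed smaller differences. Tap1, a subunit of the peptide pump of the endoplasmic reticulum, differed by -0.74, Psmb8, a subunit of the immunoproteasome, by -0.59 and B2m, the light chain of class I molecules, by -0.33. The 4 members not called were Stat2 at -1.04 (limma adjusted p = 0.0751), Cxcl10 at -0.64 (0.0766), Psmb9 at -0.62 (0.0586) and Irf1 at -0.46 (0.264). Of these only Irf1 had overlapping arrays. The call of Tap1 and of the GTPase Irgm1 was lost without NDA animal 5 (adjusted p = 0.0503 for each). B2m, Psmb8, Iigp1 and Mx2 lost it in 4 to 6 of the 6 fits with an array left out. The other 15 called members kept it in all of them, and the list had 16 to 22 members called lower across those fits and 11 with RNA integrity as a covariate. Beyond the list, and picked after its values were seen, the antiviral genes Xaf1, Ifi27 and Ddx60, the RNA sensor Ifih1 and the STAT partner Irf9 were called lower too. Their differences were -2.13 ± 0.146, -2.04 ± 0.0934, -2.09 ± 0.236, -1.15 ± 0.112 and -1.29 ± 0.134, and each kept its call without any 1 array. Rtp4, a chaperone for membrane receptors that interferon induces, was among the 12 most negative differences of all genes at -2.18 ± 0.153.

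**Figure D2:**
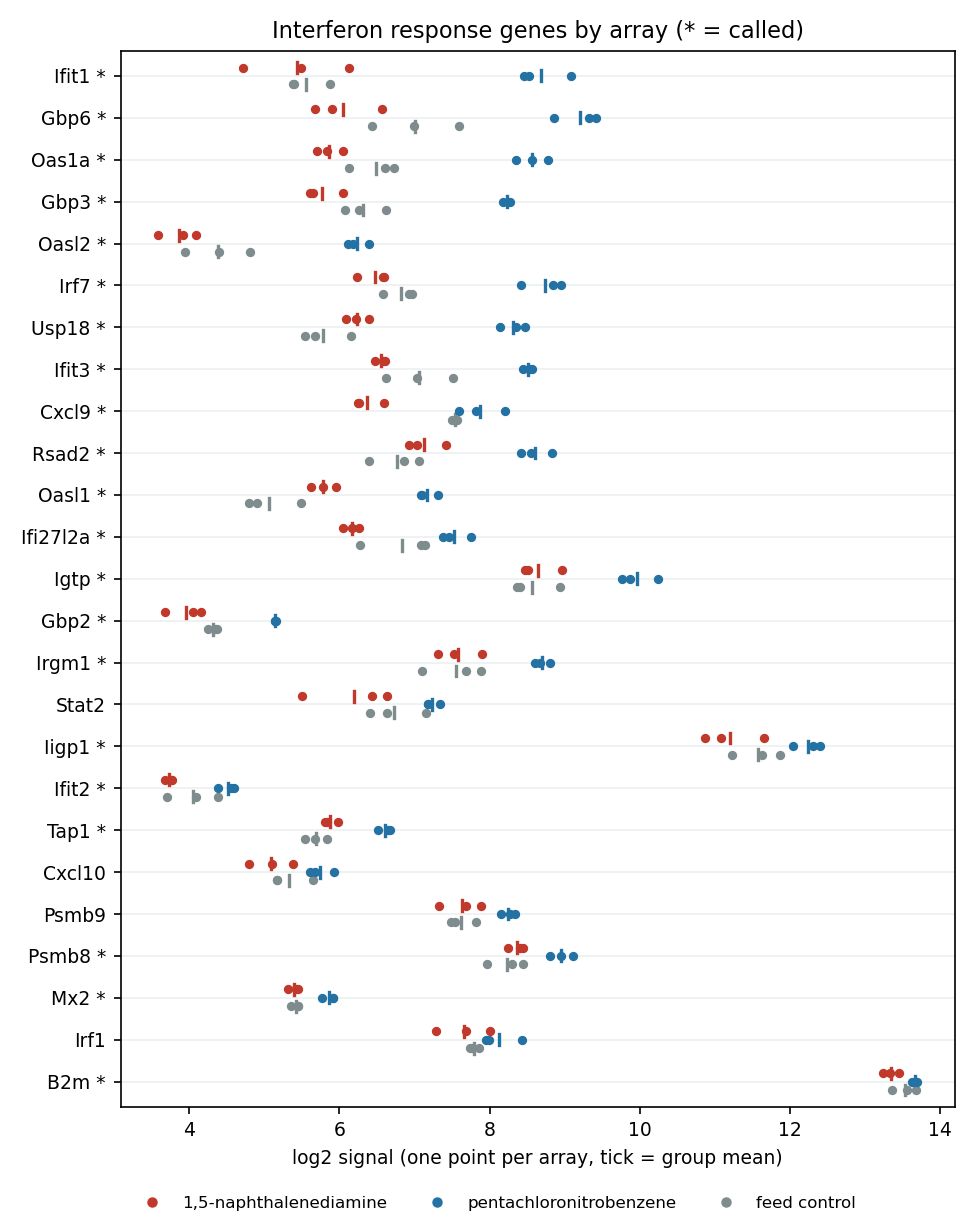
Log2 signals (horizontal axis) of the 25 tested interferon response genes (rows), 1 point per array, with a tick at each group mean and an asterisk for the 21 called lower with NDA. In 24 genes every PCNB array (blue) lies above every NDA array (red), Irf1 being the exception, and feed controls (grey) lie mostly beside or just above the NDA arrays.

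Macrophage markers had negative differences beside the interferon genes. In whole liver, fewer cells of a type and less RNA per cell cannot be told apart. All 20 tested macrophage and Kupffer cell markers had negative differences, with a median of -0.56, but 2 were called. Mpeg1, a pore-forming protein of macrophages, was at 8.25, 8.39 and 8.14 with NDA, 9.10, 9.12 and 9.43 with PCNB and 8.51, 8.87 and 8.26 in feed controls. Its difference was -0.95 ± 0.116 (limma adjusted p = 0.00511). Ctss, a lysosomal protease, differed by -0.86 ± 0.185 (0.0482), and its call was lost in 5 of the 6 fits with an array left out, those without NDA animal 4 or 5 or any PCNB animal. The defining Kupffer cell genes Clec4f, Vsig4, Timd4 and Adgre1 were not called, at -0.58, -0.64, -0.60 and -0.41. The summed log2 level of the 20 markers was 12.1 to 12.7 with NDA, 12.8 to 13.1 with PCNB and 12.3 to 13.0 in feed controls, so the NDA arrays were below PCNB and the feed controls overlapped both. The part of these cells in the interferon difference was not tested.

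Lymphocyte markers were called lower in 2 of 8 cases, Ptprc (CD45) at -0.58 ± 0.11 and Nkg7 of cytotoxic cells at -0.53 ± 0.104, and each lost its call in 5 of the 6 fits with an array left out. Nkg7 was under background with NDA and at least 1.17-fold higher with PCNB. Their summed level was 8.05 to 8.17 with NDA and 8.37 to 8.41 with PCNB. The stellate cell and matrix list had 2 of 17 called lower, the collagen-binding proteoglycan gene Lum at -0.61 and the pericyte gene Rgs5 at -0.46. Lum lost its call in 5 of those fits and Rgs5 in 6. Of 15 endothelial, 6 neutrophil, 6 cholangiocyte and 3 adipocyte markers none was called. The erythroid list had Alas2, the heme synthesis enzyme of red cell precursors, higher at 0.71 ± 0.144, a call lost in 5 of those fits and also on centring. Cela1, an elastase known from the pancreas, was lower with NDA at 7.71, 7.95 and 7.38 against 9.36, 8.85 and 8.83 with PCNB and 9.68, 9.34 and 9.06 in feed controls, and it was the only called gene of 4 tested from exocrine pancreas and gut.

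The single largest difference was that of Cyp3a16, a steroid- and drug-metabolising P450 that female mouse liver expresses more than male. Signals were 3.45, 3.70 and 3.49 with NDA, all under background, and 8.21, 7.91 and 7.47 with PCNB. The feed controls did not hold together, at 7.03, 3.36 and 3.10. PCNB exceeded NDA at least 12.0-fold (difference -4.32 ± 0.18; limma adjusted p = 4.85e-05), but NDA could not be set apart from 2 of the 3 feed controls. Cyp3a44, another female-biased member, was at 8.67, 8.13 and 8.17 with NDA, 10.29, 10.02 and 9.89 with PCNB and 10.20, 9.24 and 9.05 in feed controls, a difference of -1.74 ± 0.161 (limma adjusted p = 0.00187). Both calls held without any 1 array and differences kept their sign in all alternatives. Cyp3a genes are near copies of each other, and how far each probe set reads its neighbours was not tested.

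Other targets of CAR and PXR included Cyp3a11 and Cyp2b10, and neither was called. Cyp3a11, the main PXR-induced P450 of mouse liver, was at 13.52, 13.46 and 13.58 with NDA and 13.48, 13.52 and 13.54 with PCNB, with a difference of 0.01 and a 95% interval from -0.10 to 0.11. Cyp2b10, the standard CAR target, was at 9.44, 10.19 and 10.33 with NDA and 9.92, 9.93 and 10.77 with PCNB, against 8.82, 7.25 and 8.48 in feed controls. Both treated groups stood above every feed control and overlapped each other, with a difference of -0.22 and an interval from -0.86 to 0.42 (limma adjusted p = 0.75). Cyp2b13, a relative of Cyp2b10 with higher levels in females, was instead higher with NDA, at 11.26, 11.65 and 11.47 against 10.12, 10.27 and 10.49 with PCNB and 10.79, 9.90 and 10.62 in feed controls. Its difference was 1.17 ± 0.123 (limma adjusted p = 0.00297). Of 21 targets tested, 1 was called higher and 5 lower, with a median of -0.01. The remaining lower ones were the esterase Ces2a at -0.58 and the P450 genes Cyp2c54 at -0.47 and Cyp2c50 at -0.29. These 3 calls were each lost in 4 of the 6 fits with an array left out.

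Among genes higher with NDA the largest difference was that of Cyp1a1, the P450 that the aryl hydrocarbon receptor induces most. Its signals were 5.88, 7.46 and 7.63 with NDA and 3.79, 3.85 and 3.98 with PCNB, close to 3.47, 3.87 and 3.95 in feed controls. PCNB and feed control arrays were all under background, and the lowest NDA array, animal 2, was well above them. Of all 18 arrays only the 3 with NDA were above their array's median. Cyp1a1 thus passed the filter, and was tested, only through the group in which it was high. NDA was at least 6.47-fold higher (difference 3.12 ± 0.398; limma adjusted p = 0.00612). With RNA integrity as a covariate the difference was 3.08 (adjusted p = 0.106). Cyp1a2, the P450 of the same receptor that activates many aromatic amines, read 13.24, 13.81 and 13.57 with NDA, 12.89, 13.00 and 13.06 with PCNB and 11.93, 11.80 and 12.20 in feed controls. Both diets were above the feed controls, with NDA the higher and no overlap, but the difference of 0.56 was not called (limma adjusted p = 0.0537; interval from 0.27 to 0.84). Of 6 receptor targets tested Cyp1a1 alone was called. Tiparp, another target, overlapped between the groups at 0.17.

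NRF2 targets were the list with the most genes called higher with NDA. Of 31 tested 14 were called higher and none lower, with a median of 0.57, and 30 differences were positive. Abcc4, an efflux pump on the blood side of hepatocytes, was at 7.29, 8.10 and 8.29 with NDA, 5.77, 5.82 and 6.06 with PCNB and 4.03, 3.91 and 3.77 in feed controls. The 3 groups formed separate steps. The difference was 2.01 ± 0.237 (limma adjusted p = 0.00499), a 4.03-fold higher level with NDA. Ugdh, which makes UDP-glucuronic acid, had the same order at 11.40, 11.75 and 12.10 with NDA, 10.22, 10.31 and 10.55 with PCNB and 9.54, 9.35 and 9.28 in feed controls (difference 1.39 ± 0.166; limma adjusted p = 0.00502). Aox1, an aldehyde oxidase, also stepped upward, from 8.54, 8.67 and 8.11 in feed controls through 9.54, 9.76 and 9.59 with PCNB to 10.40, 10.64 and 10.78 with NDA. Its difference between the diets was 0.98 ± 0.109 (limma adjusted p = 0.00399).

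Glutathione S-transferases, which couple electrophiles to glutathione, had 7 of 20 tested genes called higher and none lower, with a median of 0.43. Gsta2, Gstm1, Gstm2 and Gstp1 stand in the NRF2 list too, so the lists share called genes. Gstm2 was at 10.25, 10.25 and 10.50 with NDA, 9.04, 9.09 and 9.07 with PCNB and 8.37, 8.34 and 8.25 in feed controls. Spread within each group was small beside the steps between them, and the difference was 1.27 ± 0.0875 (limma adjusted p = 0.000332). Gsta2 was at 11.73, 12.25 and 12.24 with NDA and 9.60, 10.51 and 10.57 with PCNB, and at 9.46, 7.99 and 8.57 in feed controls. It differed by 1.85 ± 0.252 (limma adjusted p = 0.00839), a call lost without NDA animal 5 (0.0565). Gstp1, the pi-class enzyme, was one of the brightest genes, at 13.46, 13.65 and 13.74 with NDA and 12.96, 13.05 and 13.13 with PCNB, and differed by 0.57 ± 0.0776. Gstm3 was at 12.04, 12.78 and 12.98 with NDA and 10.90, 11.22 and 11.90 with PCNB. Its groups spread widely and nearly touched, and the difference of 1.26 was not called (limma adjusted p = 0.0587). Gsta3, Gstt1, Gstz1 and Mgst1 lay between -0.09 and 0.03, with intervals that reached from -0.26 at the lowest to 0.14 at the highest.

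Standard reporters of NRF2 were not uniform. Nqo1, a quinone reductase, was higher by 0.94 without being called (limma adjusted p = 0.0552), as was Srxn1, a peroxiredoxin repair enzyme, by 0.57 (0.149) and Gclc, the catalytic subunit of glutathione synthesis, by 0.61 (0.199). Hmox1, heme oxygenase, was at 6.46, 6.23 and 6.04 with NDA and 6.19, 6.40 and 6.10 with PCNB, a difference of 0.01 with an interval from -0.30 to 0.32. Txnrd1, a thioredoxin reductase, was called at 0.52, Pgd of the pentose phosphate pathway at 0.77 and Fth1, ferritin heavy chain, at 0.30. Osgin1 was the one negative member, at -0.48 (0.331). Of the 14 calls 5 (Abcc4, Ugdh, Gstm2, Aox1 and Gstp1) held without any 1 array. Between 6 and 20 members were called higher in those fits, 6 without NDA animal 5, 9 without animal 4, 8 without PCNB animal 16 or 18, 11 without PCNB animal 20 and 20 without NDA animal 2. With RNA integrity as a covariate 3 were called. Of the 5 that held without any 1 array, only Gstm2 was called with that covariate. For the transferases the counts were 2 to 10, 2 without NDA animal 5, 3 without animal 4 and 4 without PCNB animal 18. No member of either list was called lower after quantile normalization or centring.

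**Figure D3:**
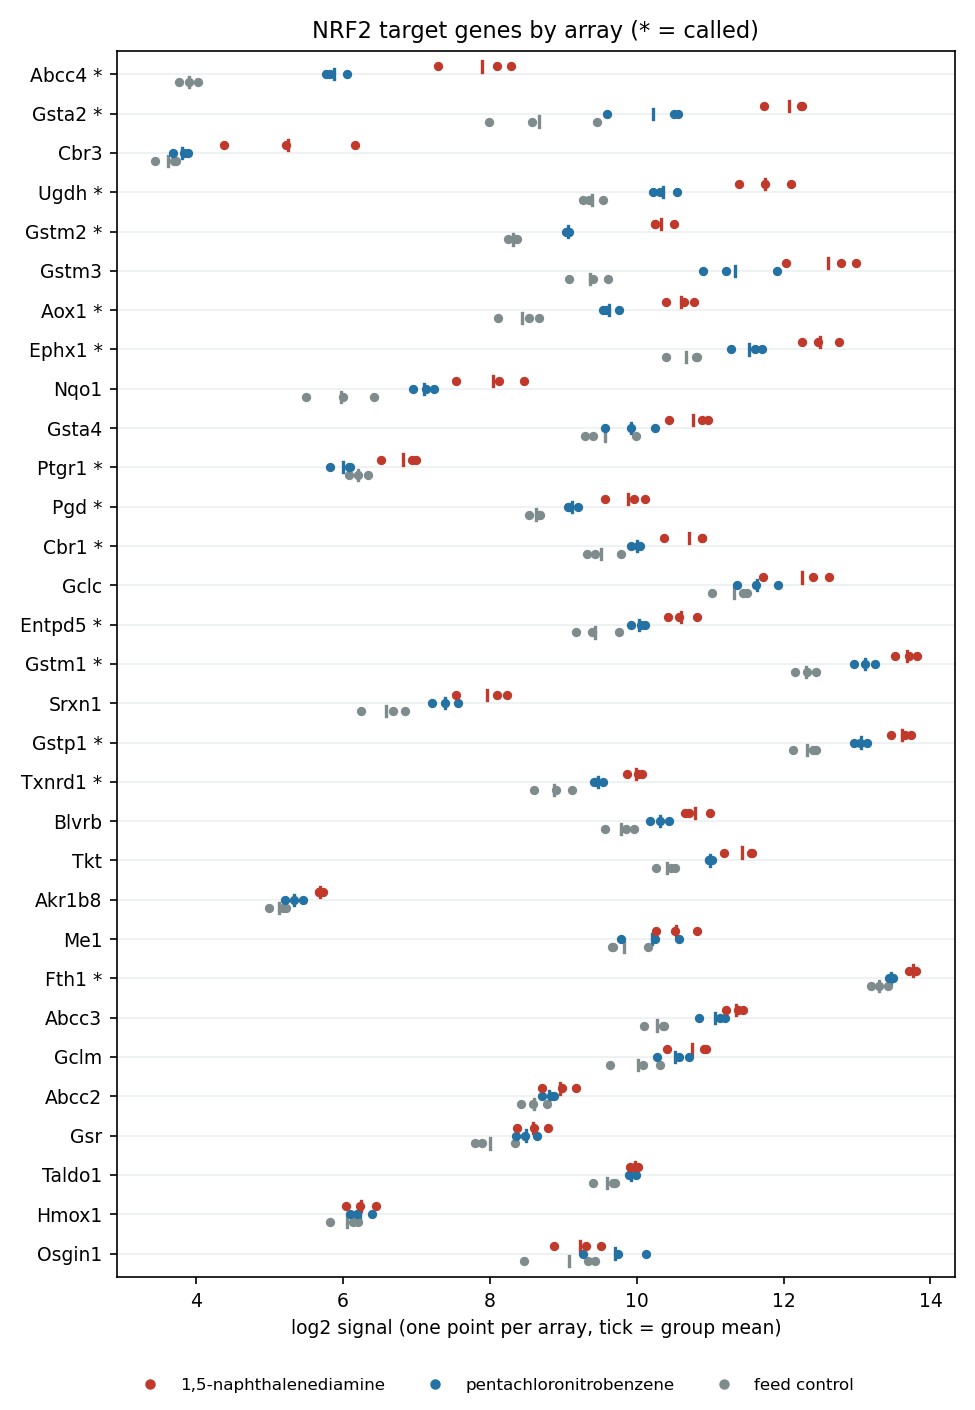
Log2 signals (horizontal axis) of the 31 tested NRF2 targets (rows), 1 point per array, with a tick at each group mean and an asterisk for the 14 called higher with NDA. In 22 of the 31 genes every NDA array (red) lies above every PCNB array (blue), the other 9 overlap between the diets, Hmox1 and Osgin1 among them, and feed controls (grey) are mostly lowest.

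Other enzymes and transporters that handle foreign compounds were called in smaller numbers. Of 15 efflux transporters Abcc4 and Abcg2 were called higher. Abcg2, a pump on the bile side, was at 9.09, 8.91 and 9.15 with NDA, 8.24, 8.18 and 8.36 with PCNB and 8.01, 8.06 and 7.22 in feed controls (difference 0.80 ± 0.0956). The bile salt pump Abcb11 was not called, at -0.30 (limma adjusted p = 0.12). Akr1c19, an aldo-keto reductase, was at 10.95, 11.12 and 11.40 with NDA and 9.69, 9.67 and 10.00 with PCNB, a difference of 1.37 ± 0.129 (limma adjusted p = 0.00192). It was 1 of 4 called, all higher, among 22 aldehyde and carbonyl enzymes, with Aldh1b1 at 0.74, Cbr1 at 0.72 and Aldh1a1 at 0.37. Aldh1b1 lost its call without NDA animal 5, and Cbr1 and Aldh1a1 lost theirs in 5 of the 6 fits. In the glucuronidation list of 12, the transferase Ugt2b35 at 0.55 and the UDP-sugar carrier Slc35d1 at 0.55 joined Ugdh, while Ugt2a3 was lower at -0.47. Ugt2b35 lost its call without NDA animal 5, and the other 2 in 4 of the 6 fits. Another probe set of Slc35d1 differed by only 0.06. The acetyltransferases Nat1 and Nat2, which acetylate aromatic amines, were not called, at -0.20 (interval from -0.59 to 0.19) and -0.34 (interval from -0.58 to -0.09).

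Uptake transporters had 4 of 16 called lower with NDA and none higher. Slc22a7, an organic anion transporter, was at 7.38, 7.11 and 7.45 with NDA, 8.97, 8.29 and 8.50 with PCNB and 8.70, 9.18 and 8.52 in feed controls. Of these 3 groups NDA was the one that stood apart, and the difference was -1.27 ± 0.177 (limma adjusted p = 0.00903). Slco1a1, another organic anion transporter, was at 5.69, 4.04 and 4.91 with NDA, 8.09, 6.65 and 6.73 with PCNB and 9.08, 9.19 and 8.70 in feed controls. The spread within both diets was wide. Its difference of -2.28 ± 0.471 (limma adjusted p = 0.042) lost its call in every fit with an array left out but that without NDA animal 2, and was -1.86 without animal 4 (adjusted p = 0.113). Slc13a3, a dicarboxylate carrier, at -0.51 and Slc10a1, the main bile salt uptake carrier, at -0.29 lost theirs in the same 5 fits. Of 10 genes of sulfation only Sult5a1 was called, at 6.32, 5.76 and 5.80 with NDA, 8.61, 8.09 and 7.76 with PCNB and 7.56, 7.51 and 6.86 in feed controls, a difference of -2.19 ± 0.228 (limma adjusted p = 0.00278).

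Genes of lipid uptake and storage were higher with NDA in 5 of 20 cases and lower in 1. Lpl, lipoprotein lipase, which adult liver normally expresses little, was at 9.99, 9.53 and 9.46 with NDA, 7.55, 7.44 and 6.91 with PCNB and 7.06, 7.91 and 6.34 in feed controls. PCNB and feed control overlapped and NDA stood alone, 5.13-fold above PCNB (difference 2.36 ± 0.193; limma adjusted p = 0.000903). Cd36, a fatty acid transporter, instead formed 3 steps, at 9.77, 9.90 and 10.16 with NDA, 8.38, 8.91 and 8.66 with PCNB and 7.57, 6.49 and 6.07 in feed controls (difference 1.29 ± 0.149; limma adjusted p = 0.00458). Fitm1, which helps form lipid droplets, was at 7.80, 7.95 and 8.23 with NDA and 6.60, 6.76 and 6.78 with PCNB (difference 1.28 ± 0.126), and its relative Fitm2 differed by 0.64. Pparg, the nuclear receptor of fat storage, was at 7.03, 6.73 and 7.32 with NDA, 5.37, 5.96 and 5.77 with PCNB and 5.56, 5.41 and 5.14 in feed controls, a difference of 1.33. The call of Pparg was lost without NDA animal 5 (adjusted p = 0.0513), and that of Fitm2 without NDA animal 5 or PCNB animal 16 or 20.

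Apoa4, an apolipoprotein of triglyceride-rich particles, was lower with NDA, at 10.01, 10.16 and 9.74 with NDA and 11.08, 10.99 and 10.75 with PCNB (difference -0.97 ± 0.122; limma adjusted p = 0.00591). Its feed controls, 11.01, 10.86 and 10.56, overlapped PCNB. Plin2, which coats lipid droplets, had a difference of -0.02 with an interval from -0.27 to 0.24. Vldlr had a large difference of 1.92 that was not called (limma adjusted p = 0.0629), with PCNB spread from 5.44 to 6.88. In fatty acid synthesis, Scd2, a desaturase usually weak in adult liver, was at 5.39, 6.23 and 6.17 with NDA and 4.46, 3.94 and 4.10 with PCNB, at least 2.98-fold higher with NDA. Beside the 3 NDA arrays only that of PCNB animal 16 was above its array's median, so Scd2 passed the filter through the NDA group. Elovl2 was lower at -0.57, and Gpam higher at 0.43, each lost in 5 of the 6 fits with an array left out. For Gpam the probe set of largest variance gave -0.23. No cholesterol synthesis gene of 20 was called. Their median was -0.23, and both diets were above the feed controls in Sqle (8.49 to 8.82 with NDA, 8.62 to 9.59 with PCNB, 6.99 to 7.51 in feed controls).

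PPAR-alpha, the fatty acid sensor, gave 3 of 27 targets called higher and 1 lower. Cyp4a14, its fatty acid hydroxylase, was at 11.40, 11.81 and 11.78 with NDA, 9.53, 10.90 and 10.17 with PCNB and 11.52, 11.63 and 10.86 in feed controls. The feed controls overlapped both diets. The difference of 1.46 ± 0.294 (limma adjusted p = 0.0387) lost its call in 4 of the 6 fits with an array left out, and was 1.39 without NDA animal 4 (adjusted p = 0.127). Vnn1, a pantetheinase, at 1.05 and Acot3, an acyl-CoA thioesterase, at -0.66 lost theirs in 5 and 4 of those fits. Cyp4a12a was called at 0.68 with both groups under background, so no fold is given, and its call was lost in 5 of the fits. On centring 1 of the list was called higher in place of 3.

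**Figure D4:**
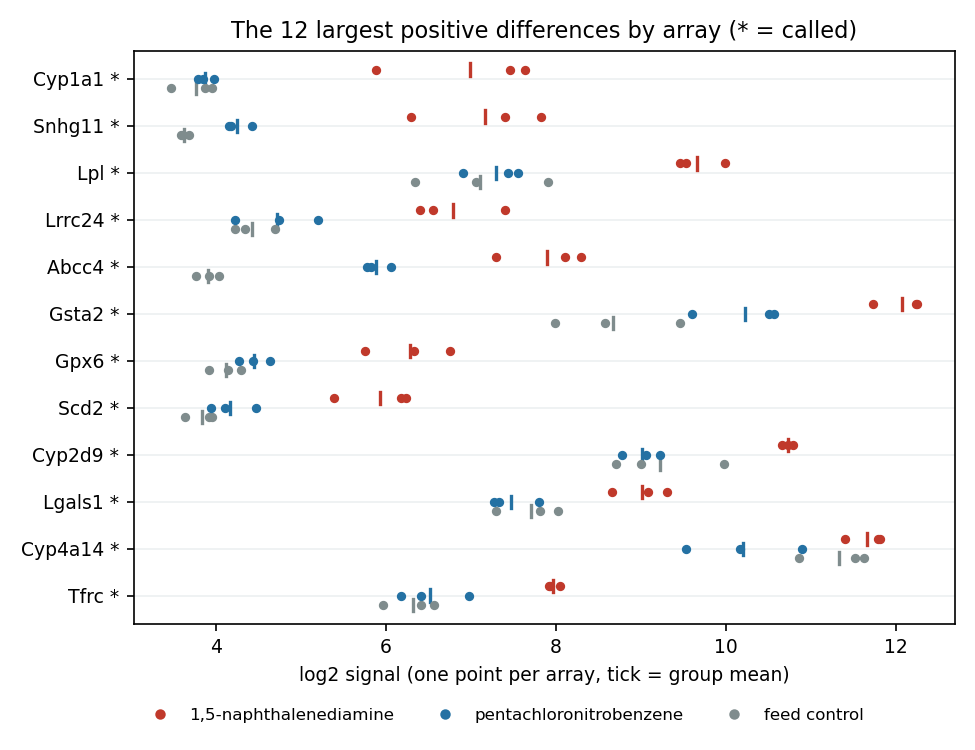
Log2 signals (horizontal axis) of the 12 called genes with the largest positive differences (rows), 1 point per array, with a tick at each group mean. Every NDA array (red) lies above every PCNB array (blue). Feed controls (grey) lie below PCNB in Snhg11, Abcc4 and Gsta2, overlap it in the other genes and also reach NDA in Cyp4a14.

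Several of the 12 largest positive differences were in genes of no list. Snhg11, a long non-coding RNA that hosts small nucleolar RNAs, was at 6.29, 7.82 and 7.40 with NDA, 4.15, 4.17 and 4.42 with PCNB and 3.69, 3.58 and 3.61 in feed controls. NDA was at least 7.14-fold higher (difference 2.92 ± 0.333; limma adjusted p = 0.00442). Another probe set of Snhg11 differed by only 0.38. With RNA integrity as a covariate its difference of 2.92 became 2.85 and was not called (limma adjusted p = 0.0864). Gpx6, a glutathione peroxidase best known from olfactory tissue, was at 6.75, 6.32 and 5.76 with NDA and 4.64, 4.27 and 4.43 with PCNB. Both genes were near or under background in the PCNB and feed control groups. Lgals1, galectin-1, was at 8.66, 9.30 and 9.08 with NDA, 7.33, 7.27 and 7.80 with PCNB and 7.81, 8.02 and 7.29 in feed controls (difference 1.55 ± 0.191; limma adjusted p = 0.00561). Lrrc24, a leucine-rich repeat protein gene, differed by 2.06 ± 0.304, a call lost without NDA animal 5 (adjusted p = 0.0513). Tfrc, the transferrin receptor that takes up iron, was at 7.92, 7.92 and 8.04 with NDA, 6.97, 6.41 and 6.17 with PCNB and 6.41, 5.96 and 6.57 in feed controls. The 3 NDA values were tight and the difference was 1.45 ± 0.187 (limma adjusted p = 0.00658). Another probe set of Tfrc differed by only 0.22. With RNA integrity as a covariate the difference of 1.45 became 0.97 and was not called (limma adjusted p = 0.0864). In the list of 22 metallothionein, iron and heme genes Tfrc was joined by Hamp2 at 0.66, related to the iron hormone hepcidin, and by Fth1. Hamp2 lost its call in 4 of the 6 fits and Fth1 in 3. The calls of Gpx6, Lgals1, Lrrc24, Hamp2 and Fth1 were also lost with RNA integrity as a covariate (limma adjusted p = 0.126, 0.0885, 0.0863, 0.0740 and 0.0966).

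Targets of p53, the factor that responds to DNA damage, had 4 of 22 called higher and none lower, with a median of 0.19. Btg2, an antiproliferative gene, was at 8.86, 8.93 and 8.86 with NDA, 7.78, 8.26 and 7.92 with PCNB and 7.57, 7.67 and 7.52 in feed controls (difference 0.89 ± 0.124; limma adjusted p = 0.00895). Ephx1, an epoxide hydrolase that is also an NRF2 target, was at 12.25, 12.47 and 12.75 with NDA and 11.28, 11.71 and 11.61 with PCNB (difference 0.96 ± 0.144). Aen, an exonuclease of apoptosis, differed by 0.71 and Zmat3, an RNA-binding protein, by 0.67. None of the 4 held in all fits with an array left out: Btg2 was lost without NDA animal 5, Ephx1 without animal 4 or 5, Aen in 5 fits and Zmat3 in 6. Cdkn1a (p21), the cell cycle inhibitor most used as a p53 reporter, was at 7.99, 8.46 and 8.48 with NDA but at 6.65, 8.11 and 6.07 with PCNB and 6.28, 8.26 and 6.90 in feed controls. PCNB animal 18 and feed control animal 28 were as high as NDA, and the difference of 1.37 was not called (limma adjusted p = 0.154). Mdm2 and Ccng1 were not called either, at 0.22 and 0.43.

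Proliferation genes gave 1 call in 18, and it was lower. Median levels of the 18 were near background, at 4.88 with NDA and 4.87 with PCNB. Of 27 members on the array only these 18 passed the filter, and Top2a and Birc5 were among those not tested. Ccnd1, cyclin D1, was at 7.45, 7.32 and 7.27 with NDA, 8.86, 8.41 and 8.79 with PCNB and 8.34, 9.19 and 8.75 in feed controls. The NDA arrays were below all PCNB and feed control arrays, and PCNB overlapped the feed controls (difference -1.34 ± 0.129; limma adjusted p = 0.00203). Its 2 other probe sets had the same sign. Mki67 and Cdk1, which mark cycling cells, differed by 0.00 and -0.04, with intervals from -0.24 to 0.24 and from -0.31 to 0.23, but Mki67 was under background in both groups. Among 18 DNA repair genes the damage kinase Atr was called higher at 0.63, a call lost in 4 of the 6 fits. In the list of 18 fetal and tumour-associated liver genes Scd2, Ly6d at 0.85 and Aldoa at 0.37 were called higher and none lower. Ly6d lost its call in 4 fits and Aldoa in 5.

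Sex-biased liver genes, which follow the pattern of growth hormone release, moved in both directions. Of 13 male-biased genes 3 were higher and 3 lower with NDA. Cyp2d9, a male-biased P450, was at 10.73, 10.66 and 10.79 with NDA, 9.22, 8.77 and 9.06 with PCNB and between 8.70 and 9.97 in feed controls (difference 1.71 ± 0.114; limma adjusted p = 0.000307). Serpina12 (vaspin), placed in the same list, was at 6.57, 5.73 and 5.46 with NDA, 9.69, 9.71 and 8.25 with PCNB and 8.28, 8.54 and 7.82 in feed controls (difference -3.30 ± 0.417; limma adjusted p = 0.00591). So 1 member was 3.27-fold higher with NDA and another 9.86-fold lower. Of 16 female-biased genes 2 were higher, Cyp2b13 and Cyp4a14, and 4 lower, Cyp3a16, Cyp3a44, the peroxisomal transporter Abcd2 at -1.25 and Acot3. Abcd2 was at 6.26, 5.36 and 6.26 with NDA and 7.22, 7.15 and 7.26 with PCNB. It was -0.95 without NDA animal 4 and lost its call in 4 of the other fits. Gprin3, in no list, was also lowest in that animal, at 5.24, 3.39 and 5.68 with NDA and 7.01, 7.94 and 7.53 with PCNB. Its difference of -2.72 was -2.04 without animal 4 (adjusted p = 0.0225), and the call was lost without NDA animal 5 or any PCNB animal. Dio1, the deiodinase that activates thyroid hormone, was picked after its values were seen. It was at 8.42, 8.46 and 8.62 with NDA, 10.00, 9.93 and 9.89 with PCNB and 9.76, 10.04 and 9.08 in feed controls (difference -1.44 ± 0.0843; limma adjusted p = 0.000156).

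Zonal, plasma protein and clock genes held few calls. Of 18 periportal genes Etnppl, a lyase of phosphoethanolamine, was at 11.07, 11.05 and 11.15 with NDA and 10.08, 10.24 and 10.01 with PCNB (difference 0.98 ± 0.0773; limma adjusted p = 0.000743). Apoc2 was higher at 0.41 and Ctsc lower at -0.67. These calls were lost in 3 and 5 of the 6 fits. Of 20 pericentral genes Aldh1a1 was higher and Lect2 lower at -0.40, each lost in 5 fits, and on centring none was higher and 4 were lower. Acute phase and complement genes had 3 of 23 lower, Itih3 at -0.63, Cfb at -0.42 and Lbp at -0.39, with a median of -0.21. Between 0 and 8 of them were called lower with an array left out, 8 without NDA animal 2 and 0 without NDA animal 5 or PCNB animal 16 or 20. Bile acid synthesis had Cyp7b1, of the alternative pathway, lower at -1.09 (16 genes tested), lost without PCNB animal 18 or NDA animal 4 or 5. The clock list had Noct, a rhythmic deadenylase-related phosphatase, lower at -1.41 (19 tested), lost in 4 fits. The hour at which livers were taken is not given in the sources used here.

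The respiratory chain list spanned a narrow range. Of its 21 differences 19 were positive, with a median of 0.17, and 3 were called, Ndufv1 at 0.33, Uqcrc2 at 0.29 and Sdhb at 0.25. Each was lost in 5 or 6 of the fits with an array left out, and none was called on centring. In the cytoskeleton list of 16, Tubb4b was higher at 0.64, a call lost without NDA animal 4 or 5, and Tmsb10 lower at -0.59, a call lost without NDA animal 5. For Tmsb10 the probe set of largest variance gave 0.20, so its probe sets disagree.

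No member was called of the lists for the amino acid stress response (16 tested, median 0.20), endoplasmic reticulum chaperones (18, -0.04), cytosolic heat shock proteins (16, 0.08), glucose and glycogen metabolism (24, 0.04), ribosomal proteins (13, 0.09) and proteasome subunits (27, 0.04). Single members reached 1.92 in the amino acid stress list and 1.31 in the glucose list without passing the test. Among bright members, Hspa5, the main chaperone of the endoplasmic reticulum, was at 12.37, 11.76 and 12.20 with NDA and 12.17, 12.09 and 12.27 with PCNB, with an interval from -0.38 to 0.26. Hspa8, a constitutive heat shock protein, had an interval from -0.30 to 0.20, Pck1, the gluconeogenic enzyme, one from -0.29 to 0.23, and Psma3 of the proteasome one from -0.16 to 0.13. In all, 105 of the 395 called genes were in at least 1 of the 45 lists and 290 in none.

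**Figure D5:**
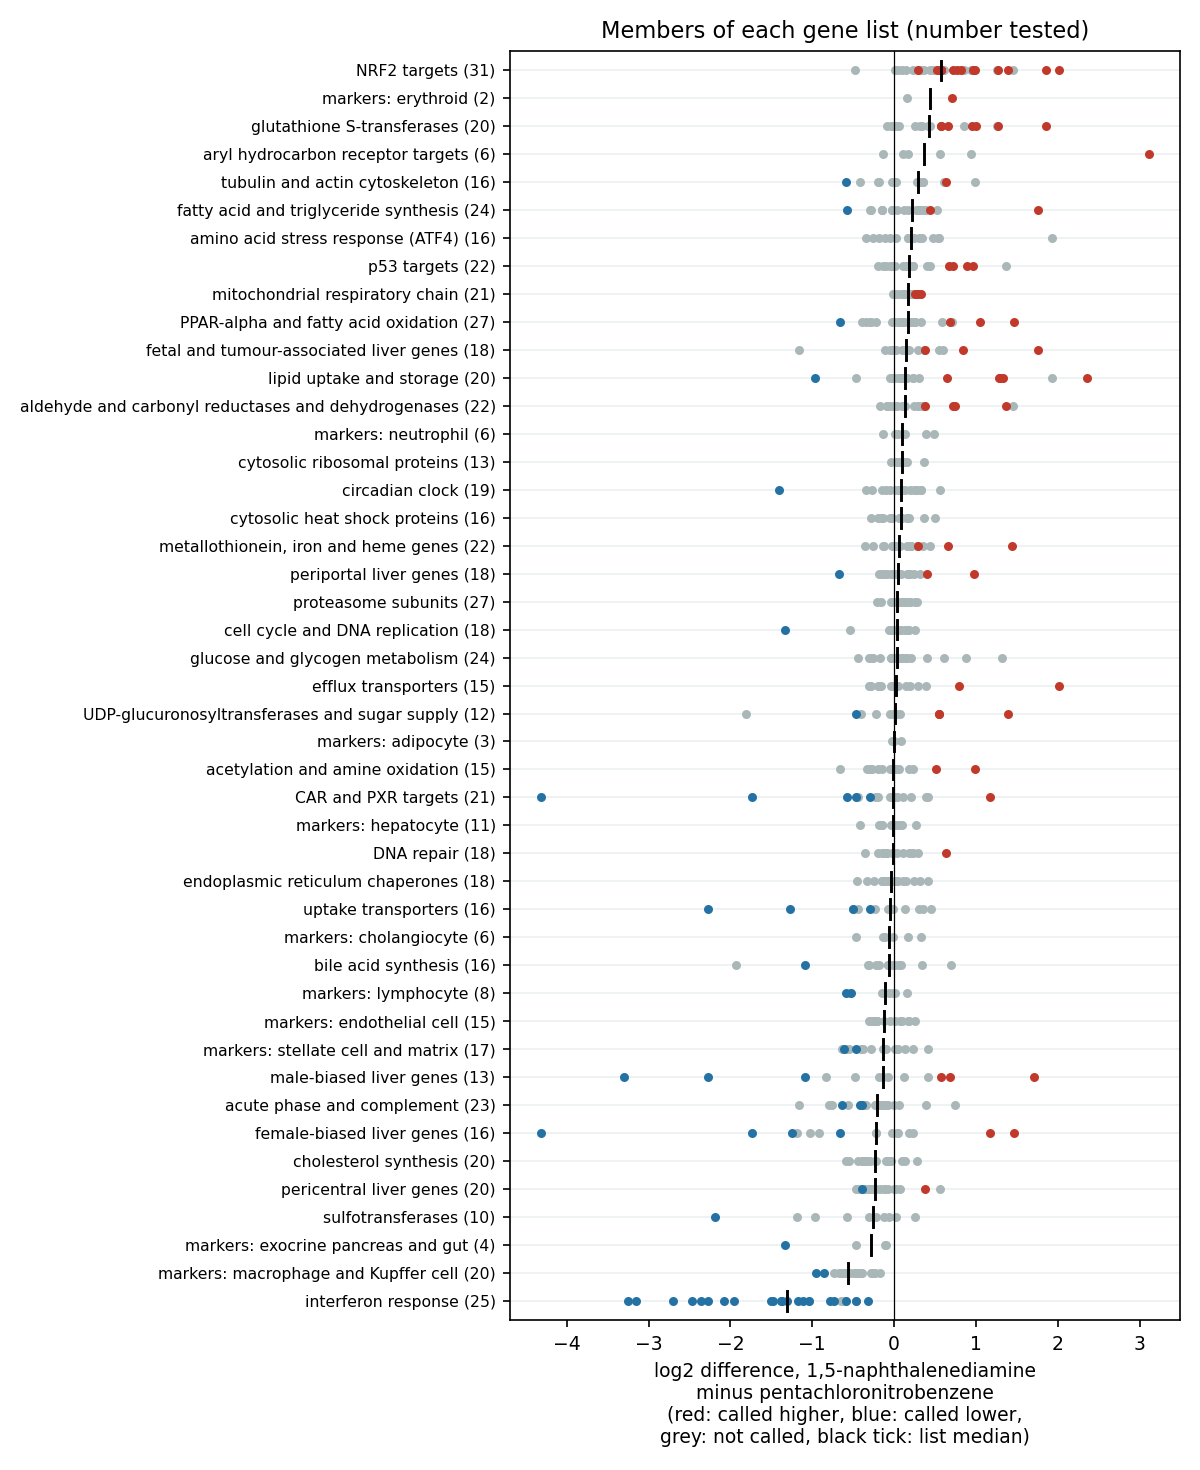
Log2 difference between the diets (horizontal axis, NDA minus PCNB) of the tested members of each of 45 gene lists (rows, number tested in brackets), with a black tick at the list median. Red points were called higher with NDA, blue lower and grey not called, with the interferon list at the bottom (median -1.31) and the NRF2 list at the top (median 0.57).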

How the data were processed

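Liver RNA of 18 mice was hybridised to Affymetrix mouse arrays. The deposited table holds log2 signals that the authors computed from scanned arrays. Their background correction, normalization and summary are unknown here, with no source that states them, and the log2 scale was checked against the range of the values. The table has 45101 probe sets. GEO annotates 34945 with a single gene, 932 with more than one and 9160 with no gene, and 64 are array controls. For 34741 the symbol was brought up to date through Entrez identifiers. Probe sets above their array's median in at least 3 of the 18 arrays were kept, and the one with the highest mean over 18 arrays stood for its gene, which left 12169 genes. With no detection calls, a mean of a group below the smallest of the 6 array medians counted as background, and a fold against it is a lower bound, taken per array from the higher of the array's median and the gene's own value.

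The 6 arrays were fitted with limma 3.58.1 in R 4.3.3, letting the prior variance follow expression level (4 residual degrees of freedom). A call needed an adjusted p under 0.05 (Benjamini-Hochberg, all genes). Replicates are separate animals, and their number limits the precision. The genes named are the 12 largest differences each way among called genes without overlap, up to 4 called members per list by moderated t, and 2 members of lists with no call. Others are described from their lists, and those picked after their values were seen are so marked. The members and lists were chosen with earlier results of these data known. Lists are described by counts and medians, with no set test. Alternatives were quantile normalization, centring, all 18 arrays, other filters and probe sets, no trend, array weights, RNA integrity or the beta-actin 3′ minus 5′ signal as a covariate (the latter chosen after seeing the data), stricter thresholds and each array left out. The fit was also run on simulated data, with an outcome that is not given here. Plots come from matplotlib 3.10.9 (Python 3.11.15).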

Additional observations from a re-analysis of the deposited data

How the results depend on the processing

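Of 395 called genes, 353 were shared with the calls after quantile normalization (377), 325 with those after centring (364), 337 with a fit to all 18 arrays (490) and 387 with array weights (491). The count was 257 without a mean-variance trend, 59 with RNA integrity as a covariate, 273 with the beta-actin signal as a covariate, 91 at 2-fold and 109 at an adjusted p under 0.01. Leaving out 1 array gave 111 to 465 calls, 111 without NDA animal 5, 217 without NDA animal 4, 152, 169 and 163 without PCNB animals 16, 18 and 20, and 465 without NDA animal 2; a group of 2 pools its spread with the other group. Each of these fits has fewer arrays and lacks a particular one, and the cause of the changed counts was not tested. Of 87 called genes that the naming rule chose, 37 kept their call in all 6 such fits. Differences changed sign in Gpam, at -0.23 with the probe set of largest variance, and in Tmsb10, at 0.20 with that choice and at 0.20 without probe sets of shared sequence. Dim genes are limited by signal over background: 27 called genes had 1 group under it and 1 had both. No paired analysis was made, because the arrays are of separate animals and the labels pair none of them across the groups.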

Other observations

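Liver plasma proteins outside the acute phase list were also called lower with NDA. They are described here after their values were seen. Hc, complement component C5, and C1s1, the complement serine protease, differed by -0.70 and -0.65, and both kept their call without any 1 array. The coagulation factor gene F9 differed by -0.50 and the protease inhibitor gene Serpinc1 (antithrombin) by -0.22. The call of F9 was lost in 3 of the 6 fits with an array left out and that of Serpinc1 in 5. Pglyrp2, a secreted amidase that degrades bacterial peptidoglycan, was at 8.53, 8.55 and 8.50 with NDA, 9.62, 9.69 and 9.74 with PCNB and 9.66, 9.82 and 9.52 in feed controls. Its PCNB and feed control arrays overlapped, and all NDA arrays lay below them (difference -1.16 ± 0.0745, n = 3 per group; limma adjusted p = 0.000265).

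Class I histocompatibility genes outside the interferon list were lower with NDA as well. They and the genes named after them were likewise picked after their values were seen. H2-K1 differed by -0.57 and kept its call without any 1 array, and H2-D1 differed by -0.54, a call lost without PCNB animal 18 or 20. Among genes higher with NDA, the GTPase gene Rnd2 was at 7.92, 8.36 and 8.14 with NDA, 7.26, 6.99 and 7.10 with PCNB and 6.14, 5.52 and 6.10 in feed controls. The diets and the feed controls formed 3 separate steps. The difference between the diets was 1.03 ± 0.13 (limma adjusted p = 0.00591). The heme transporter gene Slc48a1 and the water channel gene Aqp8 were higher by 0.93 and 0.75, and both kept their call without any 1 array.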
